A study of Mus musculus with 12 samples.

Results

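Fmo1, Fmo2, Fmo4 and Fmo5 are flavin-containing monooxygenase genes. Their transcript levels were measured in the livers of 12 mice aged 15 weeks, all female by the study's account. The 4 genes were found in the count table by their symbols, and all 4 passed the filter on low counts, among 13205 genes tested of 55401 in the table. By edgeR's quasi-likelihood test 0 of the 4 genes passed between groups and 0 had an unadjusted p under 0.05. With DESeq2 or limma-voom 0 passed. An exact permutation test of each gene gave an unadjusted p under 0.05 for Fmo1 alone (0.0433). All 4 had a lower mean in iTgMir483 than in control livers, with log2 fold changes between -0.24 and -0.16, and every 95% confidence interval included no change. For comparison, 1470 of the genes tested, 11.1%, passed the same test, 1110 of them higher and 360 lower in iTgMir483 livers.

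Flavin-containing monooxygenases are enzymes of the endoplasmic reticulum that hold FAD as a cofactor. They take electrons from NADPH and add an oxygen atom to soft nucleophiles, mainly the nitrogen or sulfur of drugs, dietary amines and sulfur compounds. Unlike cytochromes P450, they form a stable oxygenated flavin before the substrate binds and need no separate reductase. Fmo1 oxidises a broad range of amines and sulfur compounds and has been tied to taurine formation from hypotaurine. Fmo2 is best known as a lung enzyme, Fmo4 is a little-studied member, and Fmo5 differs from the others by acting as a Baeyer-Villiger oxygenase on ketones.

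Both groups, 6 mice each, were 15 weeks old. The study describes the mice as female and the controls as littermates, and the labels describe the control genotype no further. The iTgMir483 mice carried a Tet-off transgene with 1 copy of Mir483, a microRNA gene that normally lies inside Igf2, placed at the Rosa26 locus. Its selection cassette was removed with a CMV-Cre, so expression was not limited to liver cells, and doxycycline silences it. In the study's post-natal experiment, doxycycline was given in drinking water during pregnancy and then withdrawn. The study describes expression of the transgene from birth to adulthood. Counts at Mir483 were 0 in every control library and 318 to 761 in the iTgMir483 libraries, which comes from transcripts kept by the poly(A) protocol and not from the mature microRNAs.

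Library totals ranged from 12244123 to 30431286 counts. The replicate 1 libraries of both groups stood apart from the rest on the second principal component (40.78 and 37.51, against -15.61 to 1.79 in the other 10), and the values of the 4 genes, and of each gene list whose count of calls they move by over 1.5 times, are also given without them. Mup20, a major urinary protein gene with male-biased expression, had 437.3 CPM in control replicate 1 and 11.7 to 35.22 CPM in the other controls. It had 80.07 CPM in iTgMir483 replicate 1 and 5.06 to 13.38 CPM in the other iTgMir483 livers. CPM here are counts relative to library size, after TMM scaling (trimmed mean of M-values) between libraries.

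Because the transgene makes a microRNA, the annotated 3′ UTRs of the 4 genes were searched for the complement of the seed, bases 2 to 8, of each mature product. The mature sequences, from RefSeq (GRCm38, chr7:142654932-142654952 and chr7:142654968-142654989, minus strand), are shown with the seed in capitals.
mmu-miR-483-3p: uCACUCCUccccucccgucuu
mmu-miR-483-5p: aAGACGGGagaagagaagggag

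Only Fmo5, among these 4 genes, held a match in its longest annotated 3′ UTR. That UTR has 3455 bases and held 1 match of 7 bases (AGGAGTG) to miR-483-3p at chr3:97653359-97653365, plus strand, GRCm38. It also held 1 match of 6 bases (CCGTCT) to miR-483-5p at chr3:97653023-97653028. The sites are shown with the matching bases in capitals.
Fmo5, miR-483-3p match: cagaaaggcAGGAGTGgaactgaaat
Fmo5, miR-483-5p match: aaataatttgCCGTCTtccaataggt

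AGGAGTG was present in the 3′ UTR of 12.6% of 12098 tested genes with an annotated 3′ UTR, and CCGTCT in 11.8%, so such matches are common. No match of 6 bases or more was found in the 3′ UTRs of Fmo1 (782 bases), Fmo2 (2411 bases) or Fmo4 (770 bases).

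Per kilobase of exon, the 4 genes spanned a wide range of levels in control livers. Fmo5 was at 136.8 ± 28.6 CPM per kb (SD, n = 6), above 97.5% of the genes tested and in place 327 of 13205. Fmo1 was at 53.6 ± 5.19 CPM per kb, above 93.9% of the genes tested. Both therefore belong to the more abundant messages of these livers. Fmo2 was at 17.0 ± 5.77 CPM per kb, above 84.9% of the genes tested, and Fmo4 at 4.59 ± 0.931 CPM per kb, above 59.2%. In iTgMir483 livers the levels were 122.6 ± 39.0 CPM per kb for Fmo5, 45.5 ± 7.48 for Fmo1, 14.7 ± 6.27 for Fmo2 and 4.02 ± 0.819 for Fmo4.

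The order Fmo5, Fmo1, Fmo2, Fmo4 held in 12 of 12 libraries, and within each group no pair of neighbours in this order overlapped in range. Fmo5 was 1.9 to 4.35 times Fmo1 in the same library, Fmo1 was 1.89 to 8.17 times Fmo2, and Fmo2 was 2.1 to 6.96 times Fmo4. The gap between Fmo5 and Fmo1 depends on the exon length used. With the length of the longest transcript in place of all exons, Fmo5 was 149.4 and Fmo1 108.8 CPM per kb in controls, and the ratio within a library fell to between 1.02 and 2.34. The order was the same in all 12 libraries with that length too.

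**Figure D1:**
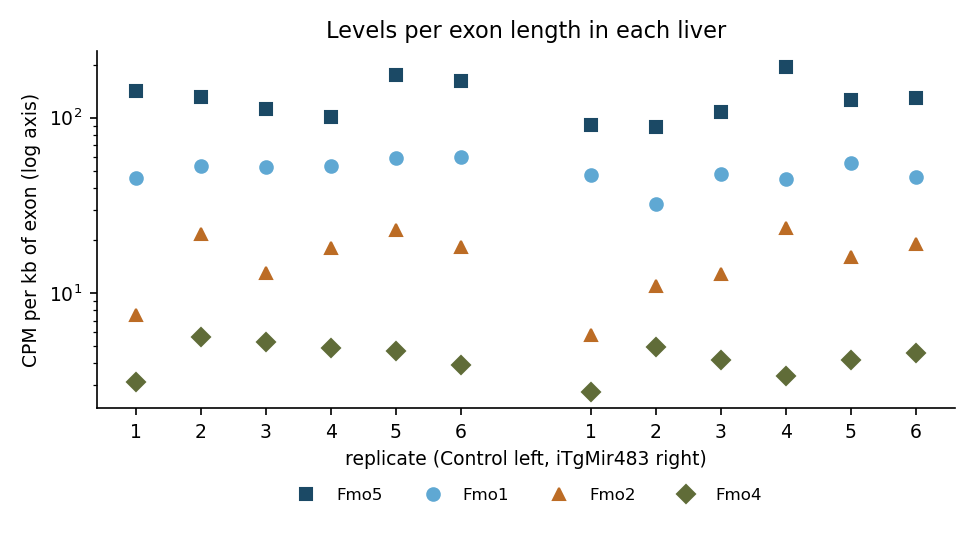
Level of each of the 4 genes in each liver, in TMM CPM per kilobase of exon on a log axis, with the 6 control replicates on the left and the 6 iTgMir483 replicates on the right. Each symbol is 1 library, and the order Fmo5, Fmo1, Fmo2, Fmo4 from top to bottom held in 12 of 12 libraries.

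Also read were 4 other flavin monooxygenase genes of the mouse annotation, Fmo6, Fmo9, Fmo12 and Fmo13, which had 0 counts in all 12 libraries. A count of 0 at these depths shows only that no transcript was detected.

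Fmo1 (ENSMUSG00000040181, GRCm38 chr1:162829561-162866610, minus strand) had 2850 to 9771 counts per library. In control livers 1 to 6 its level was 284.7, 333.6, 329.6, 334.1, 369.7 and 375.5 CPM. In iTgMir483 livers 1 to 6 it was 296.7, 203.4, 300.1, 280.9, 348.7 and 290.9 CPM. The groups overlapped, with 2 of 6 iTgMir483 livers below every control and 5 of 6 below the control median. The means were 337.9 ± 32.7 and 286.8 ± 47.2 CPM (SD, n = 6 each).

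The log2 fold change of Fmo1 was -0.24 (SE 0.12), with a 95% interval of -0.50 to 0.03. The adjusted p from edgeR's quasi-likelihood fit, by the Benjamini-Hochberg method over all genes tested, was 0.197, and before adjustment it was 0.0754. A two-sided exact permutation test of Fmo1 alone, over every way to divide the 12 livers into groups of 6, gave an unadjusted p of 0.0433. Of the 4 genes, Fmo1 had the smallest p by both tests. The interval of the fold ran from 0.707 to 1.02, so a fall of more than 1.5 fold lies outside it.

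Fmo2 (ENSMUSG00000040170, chr1:162874317-162898726, minus strand) was the most variable of the 4 genes. Control livers 1 to 6 had 42.5, 122.1, 73.3, 102.0, 129.2 and 103.4 CPM. iTgMir483 livers 1 to 6 had 32.3, 61.5, 72.5, 132.0, 90.5 and 107.1 CPM. Both ranges covered nearly the same span, and both the lowest and the highest of the 12 values came from the transgenic group. Its log2 fold change was -0.21 (SE 0.30, 95% interval -0.85 to 0.44, adjusted p = 0.674 with edgeR). The exact permutation p was 0.532. The interval of the fold, 0.553 to 1.36, does not exclude a fall of 1.5 fold.

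Fmo4 (ENSMUSG00000026692, chr1:162793188-162813972, minus strand) had 140 to 529 counts per library. Control livers 1 to 6 had 11.5, 20.9, 19.6, 18.1, 17.5 and 14.4 CPM. iTgMir483 livers 1 to 6 had 10.2, 18.5, 15.6, 12.5, 15.5 and 17.0 CPM. The groups overlapped, with 5 of 6 iTgMir483 livers below the control median of 17.8 CPM. The log2 fold change was -0.19 (SE 0.16, 95% interval -0.54 to 0.15, adjusted p = 0.432 with edgeR). The exact permutation p was 0.316, and the interval of the fold was 0.688 to 1.11.

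Fmo5 (ENSMUSG00000028088, chr3:97628804-97655282, plus strand) had the highest counts of the 4, 7015 to 16687 per library. Control livers 1 to 6 had 806.0, 742.6, 631.9, 570.6, 996.0 and 911.3 CPM. iTgMir483 livers 1 to 6 had 514.1, 500.6, 607.4, 1101, 714.7 and 736.1 CPM. The highest of the 12 values came from iTgMir483 replicate 4, while the other 5 iTgMir483 livers were all below the control median of 774.3 CPM. The log2 fold change was -0.16 (SE 0.20, 95% interval -0.58 to 0.26, adjusted p = 0.616 with edgeR). The exact permutation p was 0.394, and the interval of the fold was 0.668 to 1.2.

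**Figure D2:**
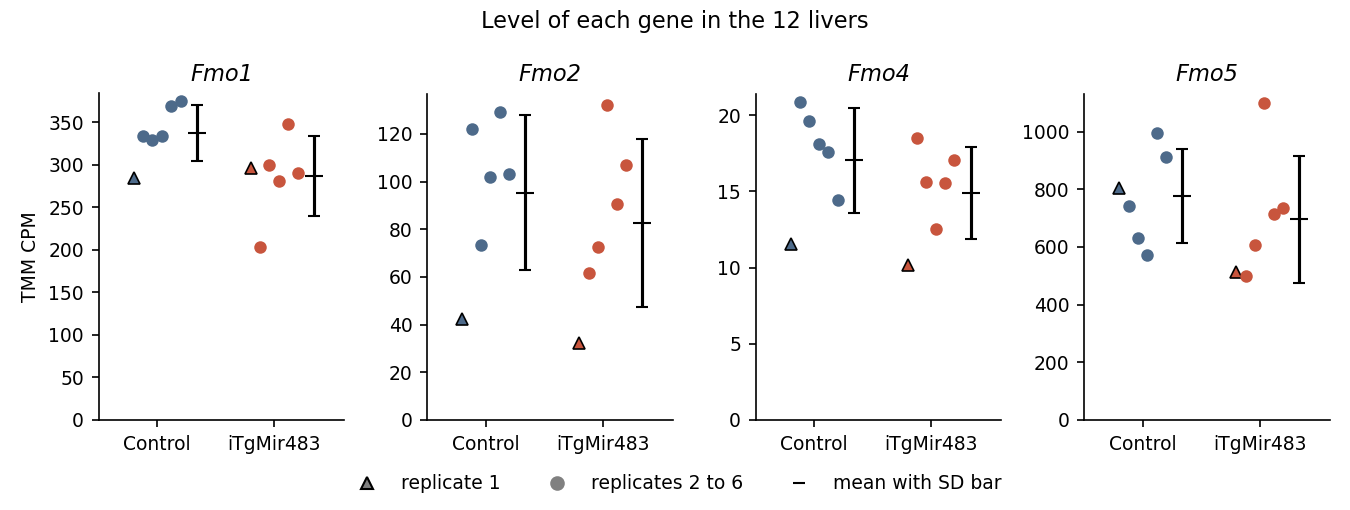
TMM CPM of Fmo1, Fmo2, Fmo4 and Fmo5 in each of the 12 livers, each panel on its own linear axis from 0. Symbols are single libraries, triangles mark replicate 1 of each group, and the bar beside each group is the mean with SD (n = 6). The groups overlap for all 4 genes, and replicate 1 is the lowest of its group for Fmo2 and Fmo4 in both groups.

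In the same fit, 1046 of the genes tested, 7.92%, had groups that did not overlap, and none of the 4 flavin monooxygenase genes was among them. The 4 log2 fold changes stand against a median of 0.01 over all genes tested. Leaving out 1 library at a time kept every fold change below 0 and none passed the test. Single libraries moved the values by a wide margin, however. Fmo2 went from -0.04 without iTgMir483 replicate 1 to -0.39 without iTgMir483 replicate 4, and Fmo5 went to -0.34 without iTgMir483 replicate 4. Fmo1 was at -0.16 without iTgMir483 replicate 2, its lowest library.

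**Figure D3:**
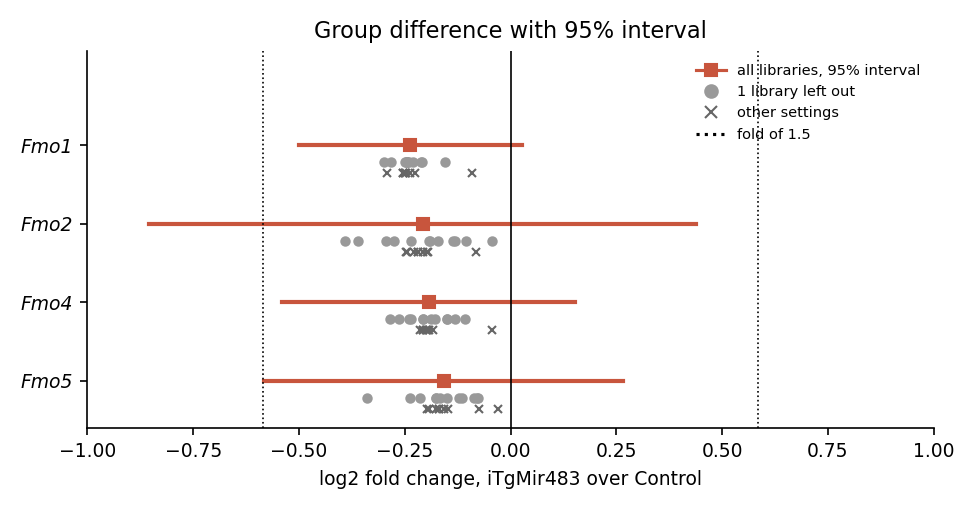
Log2 fold change of iTgMir483 over control for each gene. Squares with lines are the estimate and its 95% interval from all 12 libraries, dots are the estimates with 1 library left out, crosses are other settings of the analysis, and dotted lines mark a fold of 1.5. All 4 intervals cross 0, and all estimates shown lie below 0.

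Spread between livers exceeded counting error for all 4 genes. Among controls the coefficient of variation was 9.69% for Fmo1, 33.9% for Fmo2, 20.3% for Fmo4 and 20.9% for Fmo5, where counting alone would give 1.37%, 2.78%, 6.3% and 0.907%. Among iTgMir483 livers it was 16.4%, 42.5%, 20.4% and 31.8%, in the same order of genes. Fmo1 was thus the steadiest message, with the highest control only 1.32 times the lowest. Fmo2 differed 3.04 times between the highest and the lowest control and 4.09 times between iTgMir483 livers.

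Part of that spread came with replicate 1. In control replicate 1 Fmo2 was 0.401 times the mean of the other controls, and in iTgMir483 replicate 1 it was 0.349 times the mean of the others. Fmo4 was 0.637 and 0.644 times the mean of the others in the same livers. Fmo2 and Fmo4 were therefore lowest in replicate 1 in both groups. The other pair differed from this: Fmo1 was lowest in replicate 1 among controls (0.817 times the others) but not among iTgMir483 livers (1.04 times), and Fmo5 was at 1.05 and 0.702 times. Without both replicate 1 libraries the log2 fold changes were -0.29 for Fmo1 (adjusted p = 0.135), -0.19 for Fmo2 (0.529), -0.20 for Fmo4 (0.287) and -0.07 for Fmo5 (0.833), by edgeR's quasi-likelihood test.

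**Figure D4:**
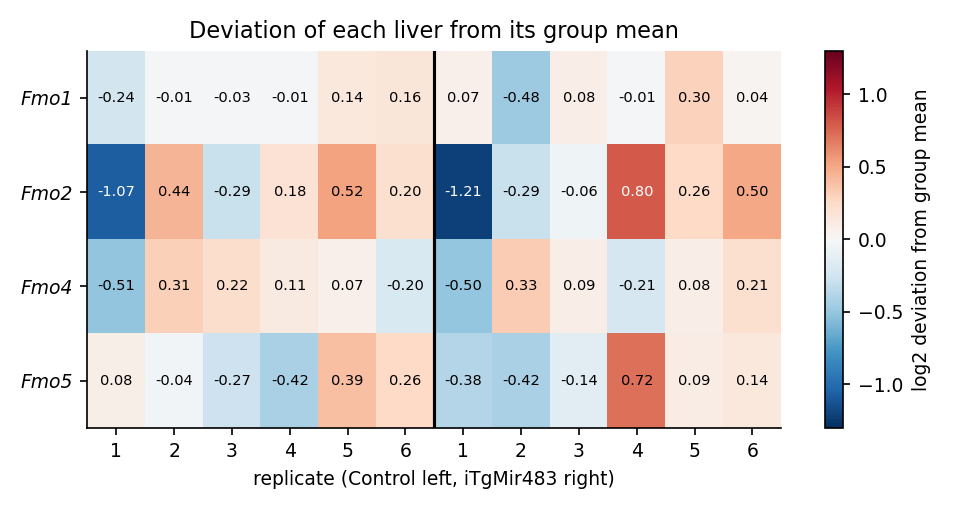
Log2 deviation of each liver from the mean of its own group, for the 4 genes (rows) in the 12 libraries (columns, controls left of the line). Blue is below and red above the group mean. Fmo2 shows the largest deviations, below the mean in both replicate 1 livers, and Fmo2 and Fmo5 share a positive deviation in iTgMir483 replicate 4.

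Whether the 4 genes differed from each other in response was tested with the ratio of each pair within a library, which does not depend on scaling between libraries. The mean log2 ratio differed between groups by -0.06 to -0.0006 over the 6 pairs. The exact permutation p-values were 0.781 to 1.0, and all were 1.0 after adjustment over the 6 pairs. Fmo1 over Fmo5, for example, had a mean log2 ratio of -1.18 ± 0.283 in controls and -1.24 ± 0.409 in iTgMir483 livers (SD, n = 6 each). The spread of the ratios, with SDs between 0.281 and 0.717, limits how small a difference could be seen.

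Relations between pairs of the 4 genes were computed within each group of 6 livers, 12 relations in all. The 2 livers left out as farthest were those farthest from the group median of the first-named gene of the pair. Fmo1 and Fmo2 had Pearson's r = 0.849 among controls (exact permutation p = 0.025, adjusted 0.217) and Spearman's rho = 0.714 (exact p = 0.136, adjusted 0.817), with r = 0.642 without the 2 farthest livers. Fmo2 and Fmo5 had r = 0.846 among iTgMir483 livers (exact permutation p = 0.0361, adjusted 0.217) and rho = 0.943 (exact p = 0.0167, adjusted 0.2), with r = 0.962 without the 2 farthest livers. Among controls the same pair had r = 0.168 (exact permutation p = 0.801, adjusted 0.801) and rho = 0.486 (exact p = 0.356, adjusted 0.967), with r = 0.534 without the 2 farthest. No relation passed after adjustment, and the difference between groups was not tested.

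Genes whose deviations from the group mean followed each of the 4 most closely over the 12 libraries were also sought, as a description. The genes nearest to Fmo1 were Ehd3, an endocytic recycling protein (r = 0.959), Rptor, a subunit of the mTORC1 kinase complex (r = 0.937), and Lrrc61 (r = 0.904). Those nearest to Fmo2 were Cpt1a, the rate-limiting enzyme of mitochondrial fatty acid import (r = 0.956), Cd93 (r = 0.949) and Clca3a1 (r = 0.945). Those nearest to Fmo4 were Acot1, a cytosolic acyl-CoA thioesterase (r = 0.963), Hnrnpd, an RNA-binding protein (r = 0.954), and Bhlhb9 (r = 0.943). Those nearest to Fmo5 were Gne, the first enzyme of sialic acid synthesis (r = 0.946), Ace, angiotensin-converting enzyme (r = 0.924), and Cklf (r = 0.922).

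The 4 genes themselves were left out of these lists. Between the 4 genes the highest values were 0.587 for Fmo2 with Fmo5 and 0.549 for Fmo2 with Fmo4, and Fmo4 with Fmo5 had -0.23. The libraries share their depth and the replicate 1 pair, and each list is the top of 13205 genes. Of these 12 neighbours in pattern, Clca3a1 (log2 fold change 0.96, adjusted p = 0.0328) and Ace (1.29, adjusted p = 0.00225) rose in iTgMir483 livers in the edgeR fit. In that fit 11.1% of all genes tested passed. Mean levels in controls and iTgMir483 livers were 7.84 and 15.3 CPM for Clca3a1, and 1.41 and 3.43 CPM for Ace.

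Fmo4, Fmo1 and Fmo2 lie side by side on chromosome 1, on the same strand, with 15.6 kb between Fmo4 and Fmo1 and 7.71 kb between Fmo1 and Fmo2. Fmo5 lies on chromosome 3. No annotated gene overlapped any of the 4. Values are given for 7 other genes within 250 kb of them, and other genes of these regions are not reported here. Near the chromosome 1 genes, Vamp4 had a log2 fold change of 0.26 (adjusted p = 0.224), Prrc2c 0.15 (0.511) and Mettl13 -0.03 (0.888). Near Fmo5, Prkab2, a subunit of AMP-activated protein kinase that starts 2.91 kb beyond it, had 0.13 (0.627), Chd1l 0.22 (0.403), Pde4dip -0.11 (0.678) and Sec22b 0.20 (0.216). These 7 genes did not pass edgeR's quasi-likelihood test.

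Genes that share the chemistry, cofactors and substrates of the flavin monooxygenases were read from the same fit. Of 19 tested genes for other flavin-dependent oxidoreductases, 2 rose and 1 fell, with a median log2 fold change of -0.06. Pcyox1, which breaks down prenylcysteine, rose by 0.65 (SE 0.14, adjusted p = 0.00572). Smox, spermine oxidase, rose by 0.78 (SE 0.17, adjusted p = 0.00618). Maoa, monoamine oxidase A, fell by 0.84 (SE 0.12, adjusted p = 0.000762). Por, the electron donor of cytochromes P450, was at -0.30 (SE 0.34, adjusted p = 0.571).

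Of 12 tested genes for NADPH supply, which flavin monooxygenases consume, 1 rose and 0 fell, with a median of -0.02. G6pdx, the entry enzyme of the pentose phosphate pathway, rose by 0.75 (SE 0.20, adjusted p = 0.0161), a call that was lost without iTgMir483 replicate 4. With no scaling beyond library totals 3 genes of this list rose. Pgd, the next dehydrogenase of that pathway, was at 0.46 (adjusted p = 0.0127), short of the fold of 1.5. Of 4 tested genes for riboflavin transport and FAD synthesis, 0 passed in either direction by edgeR's quasi-likelihood test, with a median of -0.16, and 0 had an unadjusted p under 0.05 or passed with DESeq2 or limma-voom. Rfk, riboflavin kinase, was at -0.09 and Flad1, FAD synthase, at -0.001.

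Of 16 tested genes for taurine and sulfur amino acid metabolism, 3 fell and 0 rose, with a median of -0.33. Cth, which makes cysteine from cystathionine, fell by 0.97 (SE 0.17, adjusted p = 0.00195). Ado, which makes hypotaurine from cysteamine, fell by 0.62 (SE 0.12, adjusted p = 0.00364). Ahcy, which hydrolyses S-adenosylhomocysteine, fell by 0.73 (SE 0.17, adjusted p = 0.00933). Csad, which leads from cysteine sulfinate to hypotaurine, was at -0.75 with an adjusted p of 0.0502. With no scaling beyond library totals only Cth of this list was called, and without iTgMir483 replicate 4 the calls were 2, Cth and Ahcy. Of 9 tested genes for trimethylamine and choline handling, 0 passed in either direction by edgeR's quasi-likelihood test, DESeq2 or limma-voom, with a median of 0.06 and 1 unadjusted p under 0.05.

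Of 22 tested genes for liver transcription factors and xenobiotic receptors, 1 fell and 0 rose, with a median of -0.12. Nr1i3, the constitutive androstane receptor, fell by 1.27 (SE 0.17, adjusted p = 0.000479). Ahr, the aryl hydrocarbon receptor, was at -0.44 (adjusted p = 0.0206), short of the fold of 1.5, and Hnf4a at -0.37 (adjusted p = 0.148). DESeq2 called 2 genes of this list, as did the fits without iTgMir483 replicate 3 and without iTgMir483 replicate 4. The shares of these lists that passed can be read against the 11.1% of all genes tested.

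Several flavin monooxygenases differ between the sexes in mouse liver, so genes with sex-biased liver expression were read as well. Of 10 tested male-biased genes 6 fell and 0 rose, with a median log2 fold change of -2.12. Cyp7b1, an oxysterol hydroxylase, fell by 2.29 (SE 0.45, adjusted p = 0.0039), and Elovl3, a fatty acid elongase, by 2.96 (SE 0.53, adjusted p = 0.00243). Without both replicate 1 libraries 7 fell and 1, Mup21, rose, with a median of -1.66, and with at least 10 counts required in every sample 3 of 7 fell. Of 16 tested female-biased genes 3 fell and 1 rose, with a median of -0.53. That count rests on control replicate 1: 7 fell and 1 rose without it, and the same numbers were found without both replicate 1 libraries. With limma-voom 1 fell and 1 rose, with a median of 0.05.

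The summed levels of both lists set control replicate 1 apart. The male-biased list summed to 2385 CPM in control replicate 1 and to 375.4 to 482.2 CPM in the other controls, against 505 CPM in iTgMir483 replicate 1 and 159.5 to 226.5 CPM in the other iTgMir483 livers. The female-biased list summed to 540 CPM in control replicate 1 and 2401 to 2694 CPM in the other controls, against 1526 CPM in iTgMir483 replicate 1 and 1345 to 2071 CPM in the others. The study describes these mice as female, and the sex of single livers was not tested here. The part of these genes in the values of the 4 flavin monooxygenase genes was not tested.

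In bulk liver, fewer cells of a type and less RNA per cell cannot be told apart. The labelled tissue carried its defining messages: all 8 hepatocyte markers were tested, and their summed level was 139700 to 185400 CPM in controls and 81550 to 149800 CPM in iTgMir483 livers, with 1 of the 8, Cps1, called lower (-1.21, adjusted p = 0.00476). Of 8 periportal hepatocyte markers 3 fell (summed 8547 to 11480 CPM against 4475 to 9743 CPM), and of 8 pericentral markers 1 fell, Glul (summed 14190 to 17050 CPM against 10710 to 14820 CPM). The periportal calls went from 3 to 1, Hal, with no scaling beyond library totals and without iTgMir483 replicate 5, and the low end of their sum in iTgMir483 livers came from replicate 1 (8412 to 9743 CPM without it). The call of Glul was lost with no scaling and without control replicate 5, iTgMir483 replicate 2 or iTgMir483 replicate 4. The pericentral count was 2 without iTgMir483 replicate 1 and without both replicate 1 libraries, and the hepatocyte count was 2 without iTgMir483 replicate 4.

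Of 10 macrophage markers 8 rose and 1 fell (summed 360.4 to 511.3 CPM in controls, 496 to 1408 CPM in iTgMir483 livers). Of 6 tested bile duct markers 4 rose (21.5 to 46.8 CPM against 61.6 to 91.9 CPM), both tested neutrophil markers rose (0.684 to 2.58 CPM against 2.22 to 17.0 CPM, over all 6 listed), and 1 of 3 tested lymphocyte markers rose (4.3 to 8.57 CPM against 4.37 to 7.14 CPM). The high end of the neutrophil sum came from iTgMir483 replicate 1, and without it the iTgMir483 sums were 2.22 to 11.65 CPM. The lymphocyte call, Cd4, was lost without control replicates 4, 5 or 6 or iTgMir483 replicate 5. With at least 10 counts required in every sample 1 bile duct, 0 neutrophil and 0 lymphocyte markers were called, and with no filter on low counts 4 neutrophil and 0 lymphocyte markers. By edgeR's quasi-likelihood test 0 of 10 endothelial markers passed (431.5 to 538.9 CPM against 394.5 to 533.5 CPM, 4 unadjusted p under 0.05) and 0 of 12 stellate cell and fibroblast markers (588 to 742.6 CPM against 636.5 to 789.6 CPM, 4 unadjusted p under 0.05). DESeq2 and limma-voom each called 0 of the endothelial and 1 of the stellate list, and 2 of the stellate list rose without control replicate 1, without both replicate 1 libraries and with no scaling, and 1 rose without control replicate 2, control replicate 4 or iTgMir483 replicate 2. Of 4 tested smooth muscle markers (96.6 to 162.2 CPM against 112.2 to 196.3 CPM) and 5 tested erythroid markers (131.9 to 242 CPM against 86.6 to 383.4 CPM), 0 passed by any of the 3 tools, with 1 and 0 unadjusted p under 0.05. Without control replicate 1, and without both replicate 1 libraries, 1 erythroid marker was called. Tissues beside the liver left little signal: the 7 kidney tubule markers summed to at most 0.874 CPM, with Kap, Slc12a1 and Aqp2 at 0 in all libraries, the 5 adipocyte markers to at most 2.34 CPM, with Lep at 0, and the 6 exocrine pancreas markers to at most 14.1 CPM, with 2 of them at 0. Of the pancreas markers only Cela1 passed the filter, with means of 6.82 CPM in controls and 7.81 CPM in iTgMir483 livers. The other pancreas markers had at most 2 counts in any library, and the highest sum was in control replicate 1. The part of these cell types in the levels of the 4 flavin monooxygenase genes was not tested.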

How the data were processed

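The authors prepared stranded poly(A) libraries from liver RNA, aligned paired-end reads to GRCm38 with STAR and deposited raw read counts per Ensembl gene. Which strand column was used is not given in the sources used here, and reads shared between these paralogs were handled by the authors' counting. Groups and replicate numbers came from the sample titles. The table had 0 rows that named no gene. Symbols, positions and lengths came from GENCODE M21, of the same build and another release, and 55141 of 55401 identifiers had a symbol.

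Genes were kept with filterByExpr, scaled by TMM and fitted in edgeR on all 12 libraries with no covariate, using its quasi-likelihood F-test (R 4.3.3, edgeR 4.0.16, DESeq2 1.42.0, limma 3.58.1). A gene was called, and is said to have risen or fallen, at a Benjamini-Hochberg adjusted p under 0.05 over all genes tested and a fold change over 1.5. Standard errors are the size of the log2 fold change over the square root of F, and intervals are at 95%. Permutation tests, ratios and correlations used log2(CPM + 0.5). Counting error was taken as Poisson, and it covers counting only, since reads carried no molecular identifiers. The fit was also run on simulated data with 200 changed genes, and the outcome is not reported here.

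Replicate numbers were not taken to pair the samples, so the main fit has no block. The 4 genes and the gene lists were chosen with earlier results of these data known. Named genes were the 4 genes, other flavin monooxygenase genes, genes within 250 kb, the 3 most alike genes for each, and called list members, at most 3 in each direction by smallest p, with other list members as values. Lists covered flavin-dependent oxidoreductases, NADPH supply, riboflavin and FAD, sulfur amino acids, choline, liver regulators, sex-biased genes and cell type markers, and 1 gene for NADPH supply was not matched. Not every gene named by this rule is reported here.

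Alternatives were RLE factors, no scaling, other filters, DESeq2, limma-voom, a replicate block, a test against a fold of 1.5, other pseudocounts and exon lengths, and leaving out libraries.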

Additional observations from a re-analysis of the deposited data

Results flagged for a closer look

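Among 20 values tested for a liver far from the rest of its group, 2 were flagged, where chance would give about 1.0. Both concern the log2 ratio of Fmo2 over Fmo5 in replicate 1. In control replicate 1 the ratio was -4.23, against -3.13 to -2.48 in the other controls, a gap of 0.626 of the group's whole range. In iTgMir483 replicate 1 it was -3.97, against -3.06 to -2.78 in the other iTgMir483 livers, a gap of 0.763 of the range. These are the livers in which Fmo2 was lowest of its group and Mup20 highest.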

How the results depend on the processing

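Each of the 4 log2 fold changes kept its direction and stayed short of the threshold in all 21 alternatives: Fmo1 from -0.30 to -0.09, Fmo2 from -0.39 to -0.04, Fmo4 from -0.29 to -0.04 and Fmo5 from -0.34 to -0.03, with adjusted p-values of at least 0.116. With 1 library left out the ranges were -0.30 to -0.16 for Fmo1, -0.39 to -0.04 for Fmo2, -0.29 to -0.11 for Fmo4 and -0.34 to -0.08 for Fmo5. With no scaling beyond library totals the median of all genes moved to 0.15, and relative to it the 4 genes were at -0.24, -0.23, -0.20 and -0.18. That setting called 1650 genes higher and 195 lower, against 1110 and 360. Adjusted p alone called 2457 genes, 1489 higher and 968 lower, and a test against a fold of 1.5 called 226, 167 higher and 59 lower.

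The replicate block gave 1530 calls, 1106 higher and 424 lower, and changed the call of none of the 4 genes (Fmo1 -0.25, adjusted p = 0.168; Fmo2 -0.25, 0.3; Fmo4 -0.20, 0.247; Fmo5 -0.19, 0.518). Same-numbered libraries had a correlation of deviations of 0.47 for replicate 1 and of 0.0252 to 0.182 for the other numbers, all above 0. The sample titles name no pairing, and the numbers were not taken to pair the samples. Leaving out 1 library gave 1190 to 1653 calls, 911 to 1235 higher and 279 to 426 lower.

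The differences of the log2 ratios changed sign in some settings, and none passed the test. With 1 library left out they ranged from -0.26 to 0.16 for Fmo1 over Fmo2, -0.18 to 0.10 for Fmo1 over Fmo4, -0.15 to 0.083 for Fmo1 over Fmo5, -0.26 to 0.082 for Fmo2 over Fmo4, -0.29 to 0.10 for Fmo2 over Fmo5 and -0.15 to 0.19 for Fmo4 over Fmo5. Fmo4 over Fmo5 was 0.015 with a pseudocount of 2 CPM. With the longest transcript as length, control levels were 108.8 CPM per kb for Fmo1, 23.5 for Fmo2 and 6.34 for Fmo4. With the replicate block the calls were 2 of the hepatocyte, 2 of the pericentral, 1 of the stellate and 1 of the erythroid markers, against 1, 1, 0 and 0. Other counts of called genes in the lists that moved by over 1.5 times are given beside each list in the results. The library or setting that moved them is given there, except for the test against a fold of 1.5. That stricter test called 0 macrophage, hepatocyte, pericentral and lymphocyte markers. It also called 0 genes of the lists for other flavin-dependent oxidoreductases, NADPH supply and sulfur amino acids. It called 1 periportal marker, 1 bile duct marker and 2 female-biased genes. The cause of these shifts was not tested. Fmo4, with 140 to 529 counts, was the gene most limited by depth.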
